A study of Gallus gallus with 2 samples.

Results

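TADs on the intermediate-sized chicken chromosomes GGA5 to GGA10 were described in HD3 cells. The members are all TADs that the deposited list places on these 6 chromosomes, whatever their size, and they number 550 of the 2389 TADs in the list (23.0%). HD3 (LSCC-HD3) is a chicken erythroblast line made from erythroid precursors of a female bird with a temperature-sensitive avian erythroblastosis virus. The cells were kept at 37 °C with no treatment named, and Hi-C libraries were made from 2 replicates of crosslinked cells, which form the only group of the study. Contacts of both replicates were combined before TADs were called on bins of 50 kb, so no value below has a replicate error, and the spread given is that between chromosomes. The list holds positions and no contact numbers, hence the depth behind a TAD is unknown. HD3 carries many translocations, and reads from normal and derivative chromosomes were placed on the same reference order (GalGal5). A TAD of a translocated chromosome therefore cannot be assigned to one or the other. Neither GGA8 nor GGA10 is among the chromosomes of the large translocations that the paper mapped.

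A TAD is a stretch of chromatin whose parts contact each other more than they contact the flanking sequence. In vertebrates such domains arise largely where cohesin extrudes loops until it is stopped at sites bound by CTCF, and enhancers tend to act on promoters within the same domain. Bird genomes combine a few large macrochromosomes with many small microchromosomes, which are rich in genes and GC and recombine often. GGA5 to GGA10 lie between these classes in length, although GGA5 is often counted with the large macrochromosomes. Mature chicken erythrocytes lack clear TADs, whereas progenitor-stage cells such as HD3 have them.

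GGA5 held 156 TADs, GGA6 98, GGA7 82, GGA8 82, GGA9 68 and GGA10 64. Over all 550, sizes had a median of 200 kb and quartiles of 150 and 350 kb, the mean was 323 kb, and the range ran from 100 kb, or 2 bins, to 3500 kb. The typical domain was thus short, and a small number of long ones raised the mean. TADs of at least 1 Mb numbered 27 (4.91%), but they held 24.01% of the sequence inside TADs. At the other end, 127 TADs (23.1%) had the smallest size of 100 kb. TADs of 450 kb or more held at least 50% of the sequence inside TADs.

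The median size was 250 kb on GGA5 and 200 kb on each of the other 5 chromosomes, a difference of 1 bin. Mean sizes were 330 kb on GGA5, 326 kb on GGA6, 330 kb on GGA7, 335 kb on GGA8, 308 kb on GGA9 and 291 kb on GGA10. The shortest chromosomes, GGA9 and GGA10, therefore had the lowest means, and their upper quartiles of 262.5 and 250 kb were also the lowest, against 350 to 450 kb on the others. The share of TADs of 100 kb was 26.3% on GGA5, 24.5% on GGA6, 25.6% on GGA7, 21.95% on GGA8, 17.6% on GGA9 and 17.2% on GGA10. On GGA9 and GGA10 sizes were accordingly gathered in the range just above the smallest, and 45.3% of the TADs on GGA10 spanned 150 or 200 kb.

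**Figure D1:**
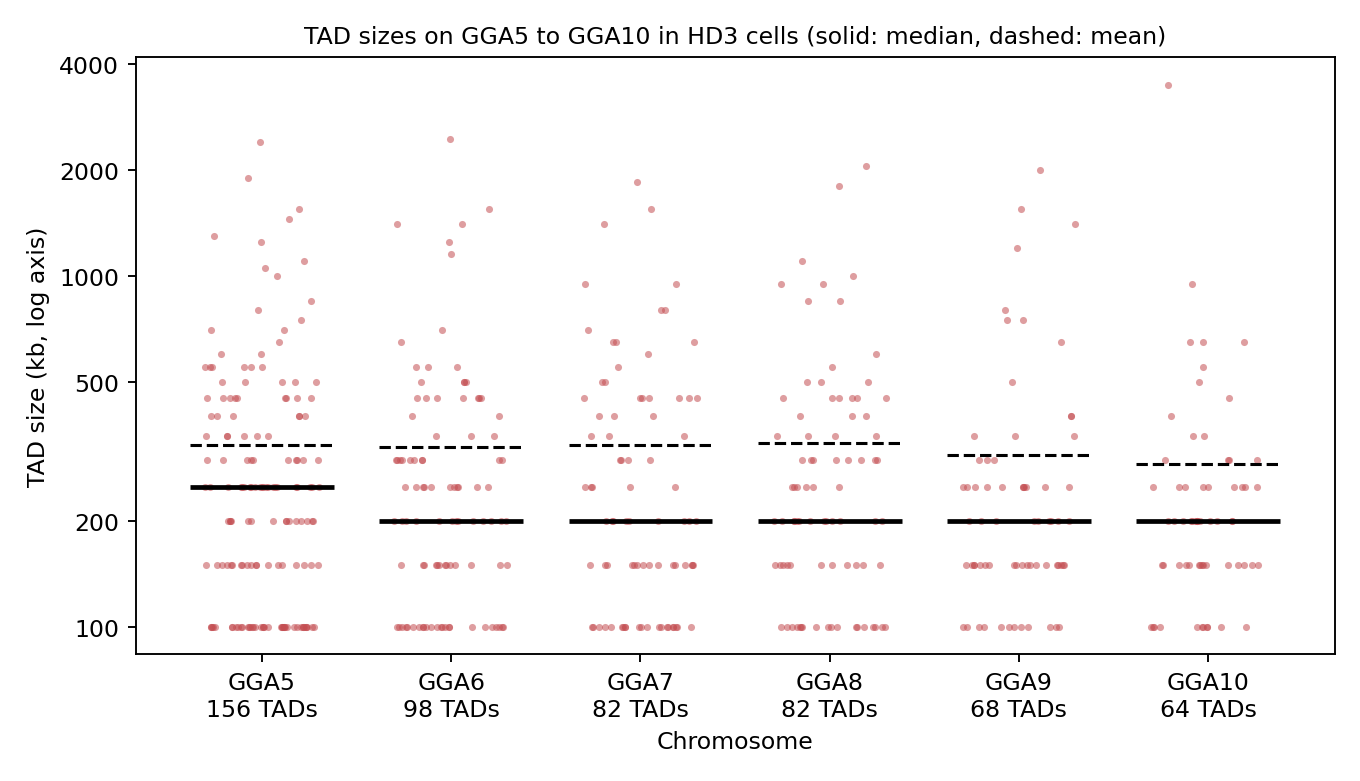
TAD sizes in kb (log axis) on each of GGA5 to GGA10; each point is 1 TAD, the solid line is the median and the dashed line the mean of the chromosome. Medians were 250 kb on GGA5 and 200 kb elsewhere, and the point at 3500 kb belongs to GGA10.

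The largest TAD of the 6 chromosomes lay on GGA10 (chr10:13150001-16650000) and spanned 3500 kb, which is 17.1% of that chromosome. It was the only TAD of 1 Mb or more on GGA10, where the next largest measured 950 kb, and without it the mean size on GGA10 fell from 291 to 240 kb. It followed a stretch of 350 kb without TADs and adjoined a TAD of 250 kb. The second largest, 2450 kb, lay on GGA6 (chr6:5300001-7750000) between adjoining TADs of 200 and 500 kb. The third, 2400 kb, lay on GGA5 (chr5:41000001-43400000) between adjoining TADs of 100 and 350 kb. The adjoining TADs were much shorter in all of these cases. Because the largest TADs were chosen and the upper quartile of size was 350 kb, shorter neighbours are the usual case. The largest TADs of the remaining chromosomes were 2050 kb on GGA8 (chr8:16850001-18900000), 2000 kb on GGA9 (chr9:20050001-22050000) and 1850 kb on GGA7 (chr7:7950001-9800000). Each of them adjoined a TAD of 300 kb or less on at least one side.

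**Figure D2:**
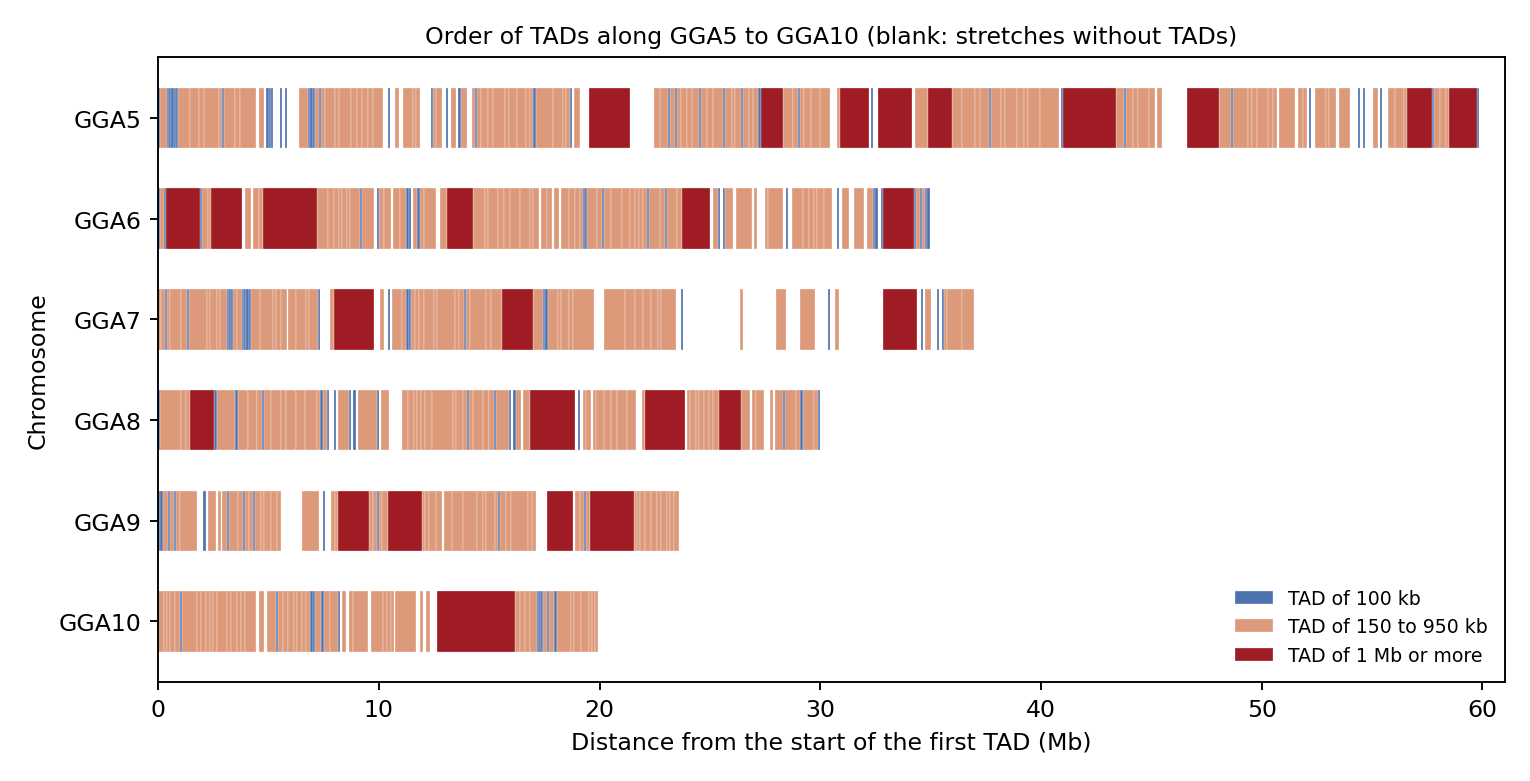
Order of the TADs along GGA5 to GGA10, drawn to scale as distance in Mb from the start of the first TAD; blue marks TADs of 100 kb, orange those of 150 to 950 kb, dark red those of 1 Mb or more, and blank parts hold no TAD. The TAD of 3500 kb stands out on GGA10, and a region of 9050 kb on GGA7 is almost blank.

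To compare density, the span of a chromosome was taken from its start to its last TAD end. It was 59.85 Mb for GGA5, 35.5 Mb for GGA6, 36.95 Mb for GGA7, 30.0 Mb for GGA8, 24.1 Mb for GGA9 and 20.45 Mb for GGA10. There were 2.61 TADs per Mb on GGA5, 2.76 on GGA6, 2.22 on GGA7, 2.73 on GGA8, 2.82 on GGA9 and 3.13 on GGA10. Density was highest on the shortest chromosome, while the lowest density was that of GGA7, not of the longest chromosome. The share of the span inside TADs was 86.0% on GGA5, 89.9% on GGA6, 73.3% on GGA7, 91.5% on GGA8, 86.9% on GGA9 and 91.0% on GGA10. GGA7 stood apart, and the other 5 chromosomes lay between 86.0% and 91.5%. Distinct TAD boundaries followed the same order at the extremes, with 2.71 per Mb on GGA7 and 3.62 per Mb on GGA10.

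The low values of GGA7 came from one region, which was singled out after its values had been seen. From 23.8 to 32.85 Mb (chr7:23800001-32850000), 5 TADs of 150, 450, 650, 100 and 200 kb were separated or flanked by 6 stretches without TADs that added up to 7500 kb. Only 17.1% of this region lay inside TADs, with 0.552 TADs per Mb. In the rest of GGA7, 91.6% lay inside TADs, with 2.76 TADs per Mb, which is within the range of the other 5 chromosomes for the density and just above it for the share. As the region was cut at the outer edges of long stretches, both values of the rest are raised by the cut. The other chromosomes kept their long stretches, so the values are not like for like. The sequence of this region and the contacts in it were not analysed here.

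Most TADs of GGA5 to GGA10 followed each other without any sequence between them. Of 544 pairs of neighbours, 438 (80.5%) adjoined, and the TADs formed 112 runs, of which 55 were lone TADs. The share of adjoining pairs was 78.7% on GGA5, 78.4% on GGA6, 79.0% on GGA7, 80.2% on GGA8, 85.1% on GGA9 and 85.7% on GGA10. Runs were of very unequal length. The 20 runs of 10 or more TADs held 65.4% of the TADs on GGA5, 46.9% on GGA6, 63.4% on GGA7, 48.8% on GGA8, 79.4% on GGA9 and 82.8% on GGA10. Most TADs of GGA5, GGA7, GGA9 and GGA10 thus belonged to long chains, with the highest shares on GGA9 and GGA10.

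The longest run, on GGA5 (chr5:22450001-30450000), joined 30 TADs over 8000 kb. In order, their sizes were 300, 350, 100, 200, 100, 200, 250, 250, 300, 100, 250, 300, 450, 100, 300, 150, 250, 100, 250, 200, 250, 100, 1000, 450, 250, 100, 150, 350, 400 and 450 kb. Short and long TADs were mixed in it, although the largest, of 1000 kb, and the closing TADs of 350, 400 and 450 kb lay in its last part. GGA7 had 2 runs of 26 TADs, and the longer of them spanned 9150 kb (chr7:10600001-19750000). The longest runs elsewhere had 23 TADs on GGA6 (chr6:18800001-25550000, 6750 kb), 22 on GGA8 (chr8:1-7750000, 7750 kb), 19 on GGA10 (chr10:13150001-20450000, 7300 kb) and 15 on GGA9 (chr9:19400001-24100000, 4700 kb). The run on GGA10 began with the TAD of 3500 kb and reached the last TAD of the chromosome. Across the 438 adjoining pairs, the size of a TAD and that of the next were hardly related (Spearman's rho -0.01, a description over pairs that share chromosomes and a TAD each).

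Between TADs lay 106 stretches without any, with a median of 150 kb and a total of 27.85 Mb. Stretches of 1 bin were rare, with 3 cases, while 40 stretches spanned 100 kb. The 12 stretches of 500 kb or more were unevenly distributed, with 5 on GGA7, 4 on GGA5, 2 on GGA9, 1 on GGA8 and 0 on GGA6 and GGA10. The longest were 2550 kb (chr7:23800001-26350000), 2000 kb (chr7:30850001-32850000) and 1500 kb (chr7:26500001-28000000), all inside the sparse region of GGA7. On GGA5 the longest was 1100 kb (chr5:45500001-46600000) and on GGA9 950 kb (chr9:6050001-7000000). On GGA8 it was 600 kb (chr8:10450001-11050000), and on GGA6 and GGA10 no stretch exceeded 350 kb (chr6:27700001-28050000 and chr10:12800001-13150000). The sequence before the first TAD was 550 kb on GGA6, 500 kb on GGA9 and 500 kb on GGA10, whereas on GGA5, GGA7 and GGA8 the first TAD began at the first base. This sequence counts in the span. The paper places breakpoints of GGA6 and GGA9 near the centromere gap of the assembly. Whether TADs could be called before the first TAD was not analysed here.

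**Figure D3:**
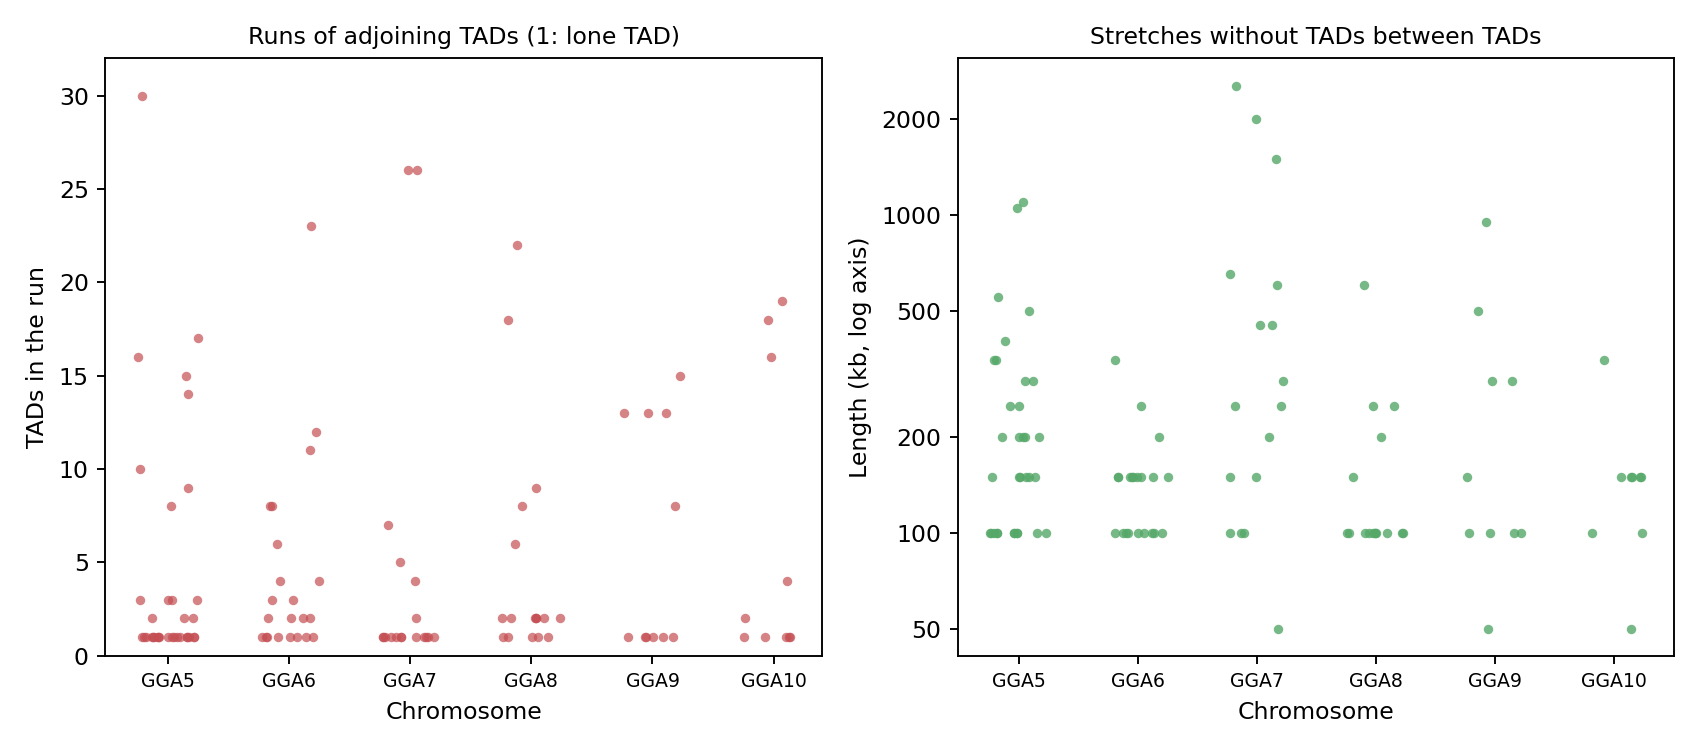
Left, number of TADs in each run of adjoining TADs on GGA5 to GGA10, where 1 is a lone TAD. Right, length in kb (log axis) of each stretch between TADs; the 3 highest points, 1500 to 2550 kb, belong to GGA7, and the longest run, 30 TADs, to GGA5.

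TADs beside a stretch without TADs were then compared with TADs that adjoin others on both sides. The medians were 250 and 250 kb on GGA5, 250 and 200 kb on GGA6, 225 and 200 kb on GGA7, 200 and 250 kb on GGA8, 200 and 200 kb on GGA9, and 250 and 200 kb on GGA10. The direction differed between chromosomes, and the mean difference of 12.5 kb did not pass the test (exact two-sided sign-flip permutation test over 6 chromosomes, p = 0.63, adjusted 0.7). The means were higher beside stretches on all 6 chromosomes, from 343 against 323 kb on GGA6 to 592 against 214 kb on GGA10, where the TAD of 3500 kb lies beside a stretch. With means the difference was 116 kb (exact two-sided sign-flip permutation test, p = 0.03125, the smallest that 6 chromosomes allow, adjusted 0.0859), which did not pass the adjusted threshold of 0.05.

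Chromosome ends in the reference order were examined by counting TADs in the first and last 5 Mb of the part from the first TAD start to the last TAD end. The paper reports translocations at ends of GGA5, GGA6, GGA7 and GGA9, so some of these are not chromosome ends on every copy in HD3. For GGA7 it reports that a part of the short arm moved to a derivative GGA5 and was lost from both GGA7 homologs. It also reports a copy number variation within that arm. The translocated part, as mapped there, covers the first 5 Mb of GGA7, so these may not be an end of GGA7 in HD3. Ends and interior had 3.0 and 2.53 TADs per Mb on GGA5, 2.7 and 2.85 on GGA6, 3.1 and 1.89 on GGA7, 2.8 and 2.7 on GGA8, 3.7 and 2.28 on GGA9, and 3.7 and 2.71 on GGA10. Density was thus higher at the ends on 5 of the 6 chromosomes, and the mean difference of 0.674 TADs per Mb did not pass the test (exact two-sided sign-flip permutation test, p = 0.09375, adjusted 0.206). Most of the sparse region of GGA7 lies in its interior and lowers that value. Without GGA7 the mean difference was 0.567 TADs per Mb (exact two-sided sign-flip permutation test, p = 0.1875, adjusted 0.344). With ends of 3 Mb the density was higher at the ends on 6 of 6 chromosomes, by 0.869 TADs per Mb on average (exact two-sided sign-flip permutation test, p = 0.03125, the smallest that 6 chromosomes allow, adjusted 0.0859). With ends of 5 Mb and TADs of 100 kb left out, the mean difference was 0.204 TADs per Mb (exact two-sided sign-flip permutation test, p = 0.406, adjusted 0.596). Its size thus depends on the smallest TADs. The ends of a chromosome also differed from each other. On GGA7 the first 5 Mb held 23 TADs and the last 8, on GGA9 22 and 15, and on GGA5 18 and 12. On GGA8 they held 13 and 15, on GGA10 19 and 18, and on GGA6 11 and 16.

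GGA5 to GGA10 were next set against the large macrochromosomes GGA1 to GGA4 (1137 TADs) and against the microchromosomes between GGA11 and GGA27 with at least 5 TADs in the list (475 TADs on 14 chromosomes), with the chromosome as the unit. In all, 10 measures were compared with each of these 2 classes, and p-values were adjusted by the Benjamini-Hochberg method over these and the 2 tests within chromosomes, 22 in all. The measures overlap in content, since density and mean size together fix the share inside TADs, and runs, adjoining pairs and stretches count the same junctions. For γ, a parameter of the TAD caller Armatus, the paper states a narrow range but not the value used on each chromosome. A difference between chromosomes in γ within that range and one in domain size therefore cannot be told apart.

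GGA5 to GGA10 had a lower mean TAD size than GGA1 to GGA4, though not a median that passed the test, and their TADs were joined in longer chains. The mean TAD size was 320 ± 17.1 kb (SD, n = 6) on GGA5 to GGA10 against 382 ± 22.4 kb (SD, n = 4) on GGA1 to GGA4, and every chromosome of the first class was below every one of the second (exact two-sided permutation test, p = 0.00476, adjusted 0.0349). The share of neighbours that adjoin was 81.2% ± 3.33 (SD, n = 6) against 69.5% ± 2.33 (SD, n = 4), again without overlap (exact two-sided permutation test, p = 0.00476, adjusted 0.0349). A run comprised 5.17 ± 0.881 TADs (SD, n = 6) against 3.27 ± 0.244 (SD, n = 4), with the same test values. A p of 0.00476 is the smallest that 6 against 4 chromosomes allow. These 3 adjusted calls stood close to the threshold. Each was lost on leaving out any of 8 chromosomes (all but GGA7 and GGA10), with adjusted p up to 0.0748 in exact permutation tests. Without GGA5, GGA6, GGA8 or GGA9, p was the smallest that 5 against 4 chromosomes allow (exact two-sided permutation tests, p = 0.00794, adjusted 0.0582). These losses therefore cannot show dependence on the chromosome left out. Without GGA7 or GGA10 p was the same, and the calls stayed because more measures reached it (exact permutation tests, adjusted 0.0349 and 0.0437). Without one of GGA1 to GGA4, p for mean size and adjoining pairs was 0.0119, the smallest that 6 against 3 chromosomes allow (exact permutation tests). For TADs per run it was 0.0119 without GGA3 or GGA4 and 0.0238 without GGA1 or GGA2 (exact permutation tests). Losses at 0.0119 likewise cannot show dependence on the chromosome left out. On counting GGA5 with the large macrochromosomes, each call was lost too (exact permutation tests, adjusted p = 0.0748). Over the other settings the adjusted p reached 0.2 in exact permutation tests, and the directions stayed. Leaving out TADs of 100 kb moved the difference in mean size from -62.6 to -116 kb and that in TADs per run from 1.90 to 0.657. A left-out TAD counts there as sequence without TADs and cuts its run, so the values per run are not like for like.

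Other measures separated the same classes without passing the adjusted threshold. The share of TADs of 100 kb was 22.2% ± 3.99 (SD, n = 6) against 29.4% ± 3.08 (SD, n = 4; exact two-sided permutation test, p = 0.0143, adjusted 0.0524). The share of TADs of 1 Mb or more was 4.65% ± 1.76 (SD, n = 6) against 7.38% ± 1.32 (SD, n = 4; exact two-sided permutation test, p = 0.019, adjusted 0.0599). Values at both extremes of size were thus lower on GGA5 to GGA10. TADs per Mb were 2.71 ± 0.298 (SD, n = 6) against 2.08 ± 0.0745 (SD, n = 4; exact two-sided permutation test, p = 0.00952, adjusted 0.0524). Stretches without TADs numbered 0.499 ± 0.0701 per Mb (SD, n = 6) against 0.631 ± 0.039 (SD, n = 4; exact two-sided permutation test, p = 0.0143, adjusted 0.0524). In these 4 measures, too, no chromosome of one class reached the range of the other. However, GGA6, with 0.592 stretches per Mb, came close to GGA3, with 0.593. GGA7, with 2.22 TADs per Mb, likewise came close to GGA4, with 2.19. With TADs of 100 kb left out, the difference in stretches turned from -0.133 to 0.0523 per Mb (exact two-sided permutation test, p = 0.405, adjusted 0.596). In that setting the sequence of a left-out TAD counts as part of a stretch, so these values are not like for like.

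The median TAD size, 208 ± 20.4 kb (SD, n = 6) against 238 ± 25 kb (SD, n = 4), did not separate these classes (exact two-sided permutation test, p = 0.19, adjusted 0.322). Nor did the median stretch without TADs, 154 ± 51.0 kb (SD, n = 6) against 200 ± 40.8 kb (SD, n = 4; exact two-sided permutation test, p = 0.233, adjusted 0.367). The share of the span inside TADs was 86.4% ± 6.78 (SD, n = 6) against 79.5% ± 3.13 (SD, n = 4; exact two-sided permutation test, p = 0.105, adjusted 0.21). Without GGA7 this difference rose from 6.89 to 9.50 percentage points and passed the threshold (exact two-sided permutation test, p = 0.00794, adjusted 0.0349). Only 1 of 10 removals gave a call, and the adjusted p of the others reached 0.371 (exact permutation tests). GGA7 is named here for its low value in the measure tested.

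**Figure D4:**
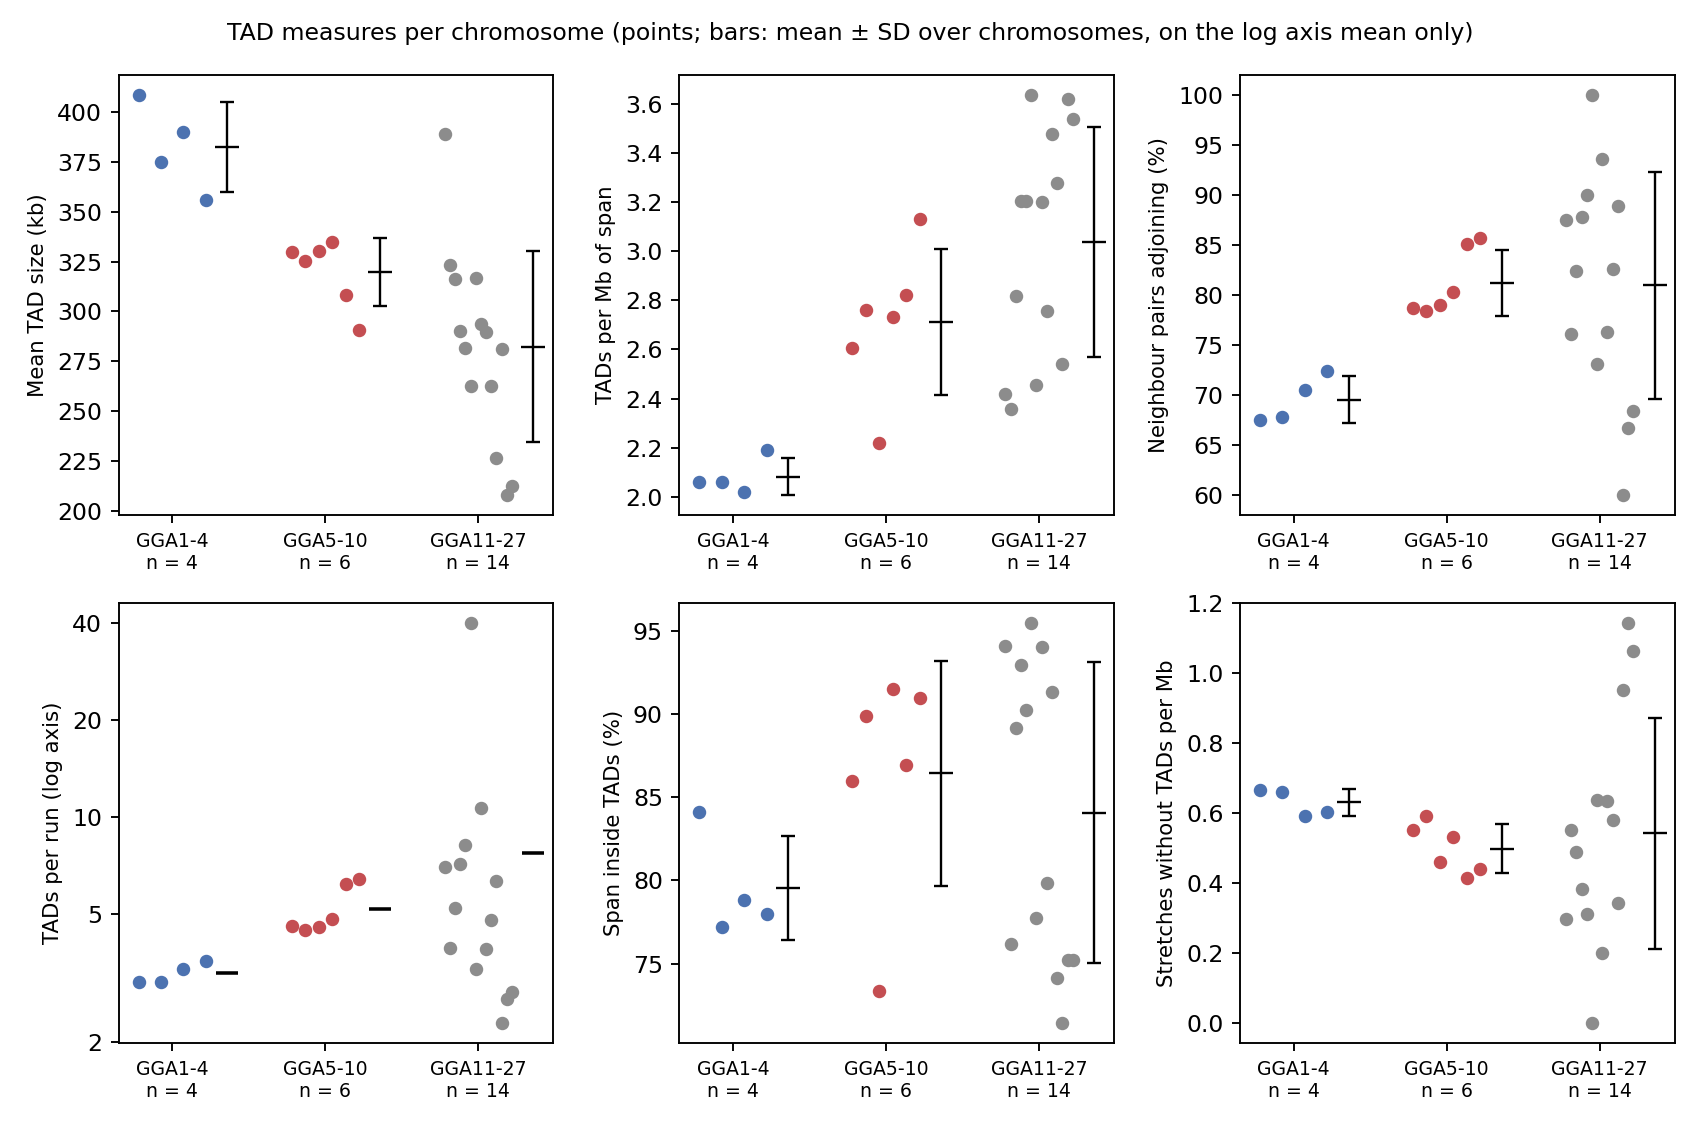
TAD measures in GGA1 to GGA4, GGA5 to GGA10 and GGA11 to GGA27; each point is 1 chromosome in numerical order from left to right, and the bars are the mean ± SD over chromosomes (mean only for TADs per run, which is on a log axis). The axes of the other panels do not start at 0. GGA5 to GGA10 lie apart from GGA1 to GGA4 in mean size, density, adjoining pairs, run length and stretches per Mb. Density and stretches per Mb did not pass the adjusted threshold, and their ranges nearly touch. GGA7 is the low point at 73.3% in the share of the span inside TADs.

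None of the 10 measures separated GGA5 to GGA10 from the microchromosomes (0 with an unadjusted p under 0.05 in exact two-sided permutation tests). The mean TAD size was 320 ± 17.1 kb (SD, n = 6) on GGA5 to GGA10 and 282 ± 48.0 kb (SD, n = 14) on microchromosomes (exact two-sided permutation test, p = 0.0844, adjusted 0.206). Without GGA11, whose mean of 389 kb was the highest of its class, this difference rose from 37.5 to 45.7 kb and passed the threshold (exact two-sided permutation test, p = 0.0131, adjusted 0.0449). Only 1 of 20 removals gave a call, and the adjusted p of the others reached 0.313 (exact permutation tests). GGA11 is named here for its value in the measure tested. TADs per Mb were 2.71 ± 0.298 (SD, n = 6) and 3.04 ± 0.468 (SD, n = 14; exact two-sided permutation test, p = 0.139, adjusted 0.254). The share of adjoining neighbours was 81.2% ± 3.33 (SD, n = 6) and 80.9% ± 11.3 (SD, n = 14; exact two-sided permutation test, p = 0.96, adjusted 0.96), with a range of 60 to 100% on microchromosomes. The share of TADs of 100 kb was 22.2% ± 3.99 (SD, n = 6) and 27.6% ± 6.64 (SD, n = 14; exact two-sided permutation test, p = 0.0827, adjusted 0.206). For the remaining 6 measures the adjusted p ran from 0.4 to 0.798 in exact permutation tests. A missed threshold does not show that these classes are alike.

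Among single sizes, 100 kb was the most frequent in each class of chromosomes, and on GGA5 to GGA10 it was followed by 150 kb with 92 TADs (16.7%) and 200 kb with 73 (13.3%). TADs of 150 or 200 kb together made up 32.2% ± 9.06 of the TADs of a chromosome on GGA5 to GGA10 (SD, n = 6), 29.7% ± 8.96 on microchromosomes (SD, n = 14) and 20.7% ± 1.78 on GGA1 to GGA4 (SD, n = 4). The range on GGA5 to GGA10 reached from 21.8% to 45.3% and overlapped that of GGA1 to GGA4, 18.2% to 22.5%. These shares were compared after they had been seen and were not tested.

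**Figure D5:**
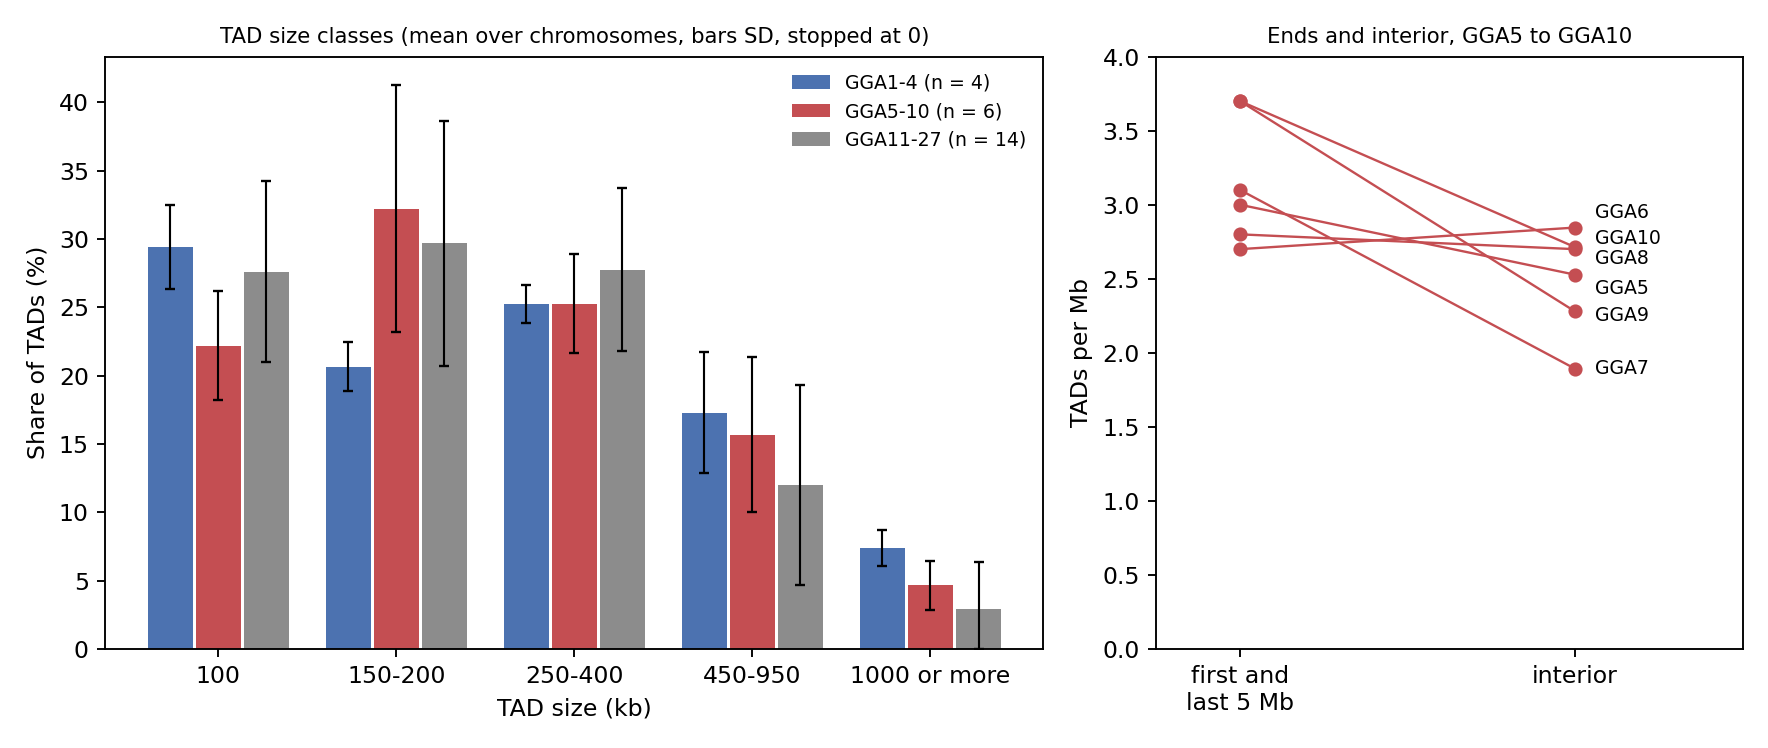
Left, share of TADs in 5 size classes of unequal width (mean over chromosomes, error bars SD, stopped at 0) for GGA1 to GGA4, GGA5 to GGA10 and GGA11 to GGA27; TADs of 150 to 200 kb average 32.2% on GGA5 to GGA10 and 20.7% on GGA1 to GGA4. Right, TADs per Mb in the first and last 5 Mb and in the interior of each of GGA5 to GGA10; the line falls on all of them but GGA6.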

How the data were processed

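Hi-C was performed on 2 replicates of untreated HD3 cells. The authors used GalGal5 as the reference and Juicer (1.6 in the submitters' processing notes) to go from reads to binned contacts. Contacts of both replicates were combined, and TADs were called with Armatus at a bin size of 50 kb. The deposited values are the start and end positions of each TAD, given by the authors in bases and written here counted from 1. The 2 coordinate pairs of each row were equal in all 2389 rows, 0 of the TADs on GGA5 to GGA10 overlapped, and all of those lay on bin edges. A column for display colour was not used.

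TAD size was end minus start plus 1 base. TADs with no base between them were called adjoining. Measures per chromosome were compared between classes by exact two-sided permutation tests of the difference of means over chromosomes, and paired measures by sign flips, with Benjamini-Hochberg adjustment over 22 tests and a threshold of 0.05. Regions were named by rule: for each chromosome the largest TAD, the longest run, the longest stretch without TADs and the stretch before the first TAD, and the 3 largest TADs overall. The members, measures and classes were chosen with earlier results of these data known. Alternatives changed the classes, the statistic, the chromosomes used, the smallest TADs, the span, the meaning of adjoining, the minimum of TADs and the length of an end. Values were computed in Python 3.11.15 with scipy 1.17.1, numpy 2.4.6 and pandas 2.3.3 and plotted with matplotlib 3.10.9. The gene table at hand is on another assembly, so genes and sequences of the regions were not analysed here.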

Additional observations from a re-analysis of the deposited data

Results flagged for a closer look

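Single chromosomes far from the rest of their class were sought by Dixon's criterion in 20 sets (10 measures in GGA5 to GGA10 and in GGA1 to GGA4), and 4 were found. Chance flags about 1 in 20 sets of normally distributed values, which these measures were not shown to be. That rate does not apply to values tied on the grid of bins, and the measures overlap in content. GGA7 was far below the other 5 chromosomes in the share of the span inside TADs (73.3%) and far above them in the median stretch without TADs (250 kb). GGA5 was apart in the median TAD size (250 kb), and GGA4 was apart among GGA1 to GGA4 in the same measure (200 kb). In both of the latter sets all other chromosomes shared 1 value and the difference was 1 bin of 50 kb.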

How the results depend on the processing

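Of 88 values recomputed under other settings, 70 kept their direction and their side of the adjusted threshold, 11 lost the call and 7 changed sign. All 11 concern the calls against GGA1 to GGA4 in mean TAD size, adjoining pairs and TADs per run. Exact permutation tests gave adjusted p from 0.0524 to 0.2 for them. With GGA5 counted among the large macrochromosomes, the differences were -54.0 kb, 10.3 percentage points and 1.75 TADs. With medians over chromosomes they were -54.9 kb, 10.5 points and 1.49 TADs. Without TADs of 100 kb they were -116 kb, 10.5 points and 0.657 TADs. With stretches of 1 bin counted as adjoining, adjoining pairs differed by 11.5 points and runs by 2.07 TADs. Without TADs of 100 kb, the unadjusted p for mean size and adjoining pairs stayed at 0.00476, as in the main setting (exact two-sided permutation tests, adjusted 0.0524). The same held for adjoining pairs with stretches of 1 bin counted as adjoining. The adjusted p rose there because fewer tests reached this smallest p, so these losses come from the adjustment. The cause of the other losses was not tested.

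All 7 changes of sign concern measures without a call. Against microchromosomes, adjoining pairs differed by -2.85 points with medians, by -0.638 with stretches of 1 bin counted as adjoining and by -2.24 with at least 20 TADs per chromosome, where the share inside TADs differed by -0.500 points and stretches by 0.0307 per Mb. Without TADs of 100 kb, TADs per run differed by 0.29 against microchromosomes and stretches by 0.0523 per Mb against GGA1 to GGA4. Left-out TADs count there as sequence without TADs and cut runs, so these are not the same measures as before. Leaving out the largest TAD of each chromosome, a setting chosen after seeing the data, kept the call on mean size against GGA1 to GGA4. Against microchromosomes the difference in mean size was then 47.7 kb and stayed just short of the threshold (exact two-sided permutation test, p = 0.0137, adjusted 0.0502).

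Leaving out each chromosome in turn, the differences from GGA1 to GGA4 ran from -71.4 to -53.8 kb in mean size, from 10.7 to 12.6 points in adjoining pairs, from 1.65 to 2.04 TADs per run, from -8.06 to -5.72 points in TADs of 100 kb, from -3.03 to -2.08 points in TADs of 1 Mb or more, from 0.546 to 0.728 TADs per Mb, from 5.87 to 9.50 points in the share inside TADs and from -0.151 to -0.116 stretches per Mb. Fewer chromosomes raise the smallest p, to 0.00794 for 5 against 4 (exact permutation tests). TADs of 100 kb, TADs of 1 Mb or more, TADs per Mb and stretches per Mb passed the threshold without GGA7 or without GGA10. The share inside TADs passed without GGA7. Unadjusted p rose for TADs of 100 kb, stretches and, without GGA10, TADs per Mb, so these passes come from the adjustment. It fell for the others. Against microchromosomes the range was 31.8 to 45.7 kb in mean size, -1.37 to 1.71 points in adjoining pairs and -0.085 to 0.00288 stretches per Mb.

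The list was made from pooled contacts and carries no replicate numbers. No replicate was left out, and the only pairing was by chromosome. Positions are limited by the bin of 50 kb.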

Other observations

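TADs of 100 kb occurred in uninterrupted rows of 3 or more at 6 places on GGA5 to GGA10. The longest row, of 5, lay near the start of GGA5 (chr5:400001-900000), and a row of 4 lay on GGA7 (chr7:3800001-4200000). Rows of 3 lay at chr5:4900001-5200000, chr5:6800001-7100000, chr7:3100001-3400000 and chr10:17650001-17950000. None occurred on GGA6, GGA8 or GGA9.

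Over all 24 chromosomes compared, the rank correlation of the span with mean TAD size was 0.90, and that with TADs per Mb was -0.77. Within the 14 microchromosomes the correlation of the span with mean size was 0.86, and within GGA5 to GGA10 it was 0.60 over 6 chromosomes. The share of the span inside TADs (0.08) and the share of adjoining neighbours (-0.19) had weak correlations with the span over the 24 chromosomes. These correlations ran in opposite directions in GGA5 to GGA10 and in the microchromosomes, and were not computed for GGA1 to GGA4. Within GGA5 to GGA10 they were -0.66 and -0.83 over 6 chromosomes, and within the 14 microchromosomes 0.53 and 0.28. These are descriptions across chromosomes of the same combined libraries.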
